A study of Homo sapiens with 29 samples.

Results

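The nuclear-encoded subunits of respiratory complexes I to V were followed in BEAS-2B cells, an immortalised human bronchial epithelial line, after exposure to N-OH-PhIP, the N-hydroxylated, DNA-reactive form of a heterocyclic amine found in cooked meat and tobacco smoke. Members were the protein-coding genes whose symbol on the array names a structural subunit (the NDUFA, NDUFB, NDUFC, NDUFS and NDUFV series without the NDUFAF assembly factors, SDHA to SDHD, UQCR, COX4 to COX8, ATP5F, ATP5M and ATP5P), each read from its brightest probe set. Of 76 such genes with a probe set of their own, 70 passed the minimum mean level of 5.74 on the log2(intensity + 16) scale, out of 12174 genes tested: 33 of complex I, 3 of complex II, 6 of complex III, 11 of complex IV and 17 of complex V. Triplicate cultures at about 70% confluence were exposed for 24 h to DMSO alone or to N-OH-PhIP at 0.1, 0.5, 1, 5, 10, 50, 100, 500 or 1000 nM, doses as the sample titles give them. The treatment protocol names 0.5 nM as the lowest, so the lowest dose is not settled. All cultures, controls included, held 1% DMSO. The 29 arrays gave 3 per group, except 2 at 0.5 nM. A single cell line was used, and the p-values measure the spread between cultures of that line.

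The respiratory chain passes electrons from NADH (complex I) and succinate (complex II) through complex III to oxygen at complex IV, and complex V uses the proton gradient this builds to make ATP. Each of these complexes except II combines subunits encoded in the nucleus, made in the cytosol and imported, with a small core encoded on mitochondrial DNA, so its assembly draws on both genomes. Transcription of the nuclear subunits is known to depend on NRF1, the ETS factor GABPA (NRF2), YY1 and SP1.

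Promoter windows of the subunits held letters of these factors' motifs more often than promoters at large, as a description with no test. Of the 70 members, 61 were matched to the RefSeq promoter table (GRCh38.p14, 250 bases before to 50 after the start), which held 27305 promoters, and both strands were searched. Those promoters were not limited to protein-coding genes or to genes measured here, as the members are, so the 2 sets differ in more than function. The NRF1 letters GCGCATGCG were in 10 of 61 windows, or 16.4%, against 2.10% of all promoters. The ETS/GABPA letters CCGGAAG were in 18 windows (29.5% against 10.7%), the YY1 letters AAGATGGC in 10 (16.4% against 3.03%) and the SP1 letters GGGCGG in 38 (62.3% against 44.6%). These are promoters at the first listed start of each gene, and a match is not evidence of binding. By call at 1000 nM, the NRF1 letters were in 1 of 20 matched members that rose, 2 of 10 that fell and 7 of 31 that were not called. In the same order, the counts were 8, 2 and 8 for the ETS/GABPA letters, 2, 3 and 5 for YY1, and 13, 9 and 16 for SP1.

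The windows below are those of members on which the results turn: a pair of genes for the same ATP synthase subunit that moved in opposite directions (ATP5MC1 and ATP5MC2), an ATP synthase subunit that rose (ATP5ME), and the complex I subunits NDUFS4 and NDUFS7, which fell, and NDUFS3 and NDUFB6, which rose. Each runs 5′ to 3′ from 120 bases before to 30 after the start, with the letters of the 4 motifs, on either strand, in capitals. ATP5MC1 lies at chr17:48892667-48892816 on the plus strand, ATP5MC2 at chr12:53676054-53676203 on the minus strand, ATP5ME at chr4:674247-674396 on the minus strand, NDUFS4 at chr5:53560519-53560668, NDUFS7 at chr19:1383787-1383936 and NDUFS3 at chr11:47578954-47579103 on the plus strand, and NDUFB6 at chr9:32573130-32573279 on the minus strand.
ATP5MC1: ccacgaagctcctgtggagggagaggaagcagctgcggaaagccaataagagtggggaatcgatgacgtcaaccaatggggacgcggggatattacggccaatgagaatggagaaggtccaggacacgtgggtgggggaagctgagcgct
ATP5MC2: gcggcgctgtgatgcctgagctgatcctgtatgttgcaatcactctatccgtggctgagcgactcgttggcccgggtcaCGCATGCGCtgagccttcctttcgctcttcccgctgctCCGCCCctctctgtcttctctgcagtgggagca
ATP5ME: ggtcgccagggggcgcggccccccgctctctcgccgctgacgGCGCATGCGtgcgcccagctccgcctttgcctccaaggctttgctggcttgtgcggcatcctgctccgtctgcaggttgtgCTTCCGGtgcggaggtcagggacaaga
NDUFS4: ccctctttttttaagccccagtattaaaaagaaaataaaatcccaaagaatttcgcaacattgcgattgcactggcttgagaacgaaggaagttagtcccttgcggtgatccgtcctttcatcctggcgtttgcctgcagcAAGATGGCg
NDUFS7: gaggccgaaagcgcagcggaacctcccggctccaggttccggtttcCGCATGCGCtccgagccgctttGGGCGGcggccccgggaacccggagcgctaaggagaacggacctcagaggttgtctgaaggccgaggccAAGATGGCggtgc
NDUFS3: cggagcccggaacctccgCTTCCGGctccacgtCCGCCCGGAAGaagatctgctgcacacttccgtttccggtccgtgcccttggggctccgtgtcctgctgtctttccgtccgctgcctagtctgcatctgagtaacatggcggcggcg
NDUFB6: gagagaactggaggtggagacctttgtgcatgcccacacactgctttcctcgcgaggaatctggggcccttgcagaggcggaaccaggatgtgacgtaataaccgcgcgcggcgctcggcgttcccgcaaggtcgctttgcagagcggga
The NRF1 letters stand in ATP5MC2, ATP5ME and NDUFS7, with SP1 letters also in ATP5MC2 and NDUFS7, ETS letters in ATP5ME, and YY1 letters just after the start in NDUFS7 and NDUFS4. The window of NDUFS3 holds ETS letters at 2 places, the second overlapping SP1 letters. The windows of ATP5MC1 and NDUFB6 hold none of the 4.

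The arrays were close in overall level, with trimmed mean intensities from 299 to 309 and array medians from 35.8 to 38.4. Epithelial identity was checked on 9 markers with a probe set of their own, of which 8 passed the level minimum. E-cadherin (CDH1) stood at 6614 ± 88.9 (SD, n = 3) and keratin KRT5 at 851 ± 104 in DMSO. These markers moved with the highest doses too. At 500 nM, 6 of 8 were higher (23.1% of all probe sets), with a median log2 change of 0.58. At 1000 nM, 5 were higher (28.9% of all) and CDH1 was lower (-0.08), with a median of 0.55. There KRT8 changed by 1.45 ± 0.14 and KRT5 by 1.15 ± 0.13. Of the 14 leukocyte, endothelial and fibroblast markers on the array, CD14 and COL1A1 passed, and CD14 went from 43.9 ± 3.59 to 86.9 ± 8.40 and COL1A1 from 601 ± 34 to 791 ± 43.2 at 1000 nM. The part of these markers in the results was not tested. The 2 arrays with the lowest mean log2 level over the 70 members were 5 nM replicate 3, at 11.54 against 11.69 and 11.62 in the rest of its group, and 500 nM replicate 3, at 11.55 against 11.71 and 11.79. The mean 3′ to 5′ log2 ratio of the actin and GAPDH controls reflects how intact the RNA was and how far amplification ran. It was 1.18 ± 0.04 in DMSO, 1.16 to 1.35 on average at 0.1 to 100 nM, 0.93 ± 0.08 at 500 nM and 0.84 ± 0.02 at 1000 nM. The mean ratio fell at the 2 doses at which the subunits changed, and the fall was in actin, not GAPDH. Actin averaged 2.21 in DMSO, 1.67 at 500 nM and 1.52 at 1000 nM, and GAPDH 0.14, 0.20 and 0.17. The part of the mean ratio in the changes was not tested, beyond the fits with this ratio as a covariate that are given beside the results. In these bulk samples, fewer cells of a type and less RNA per cell cannot be told apart.

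At 0.1 to 100 nM the nuclear-encoded subunits stayed close to their DMSO level, and 2 of the 70 passed the test at any of these 7 doses. Doses were set against DMSO within 1 limma fit over all 29 arrays, with p-values adjusted by Benjamini-Hochberg over 27307 probe sets and called at 0.05; all doses share the same 3 DMSO arrays. No member was called at 0.1 nM (0.597% of all probe sets called, 3 members at an unadjusted p under 0.05), 0.5 nM (0.0439%, 1 member), 1 nM (0.780%, 7 members), 10 nM (0.242%, 1 member) or 50 nM (0.264%, 4 members). ATP5F1B, the catalytic beta subunit of ATP synthase, fell at 5 nM (1.11% of all probe sets called), from 3911, 4263 and 4266 to 3715, 3700 and 3421, a log2 change of -0.20 ± 0.05 (SE, limma adjusted p = 0.029). NDUFB6, a membrane-arm accessory subunit of complex I, rose at 100 nM (2.90% called), from 1106, 1111 and 1187 to 1324, 1304 and 1270, a log2 change of 0.19 ± 0.05 (adjusted p = 0.04). In both cases the treated arrays did not overlap the DMSO arrays. The count of 2 is not firm: without DMSO replicate 2 it was 0 with limma, with 17 members at an unadjusted p under 0.05 at some dose, and it was 1 when any 1 array of the 100 nM or 1 nM groups, 50 nM replicate 2, 10 nM replicate 1 or 0.1 nM replicate 3 was left out.

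At 500 nM, 20 of the 70 subunits rose and 6 fell, against 23.1% of all tested probe sets called higher and 22.3% called lower (45.4% in all). At 1000 nM, 24 rose and 11 fell, against 28.9% higher and 31.0% lower (59.9% in all). The changes were small: the median size of change of the members was 0.10 at 500 nM and 0.12 at 1000 nM on the log2 scale, against 0.21 and 0.29 over all tested probe sets. At 500 nM, 7 of 70 members moved by at least 1.2-fold (41.1% of all probe sets) and 1 of 70, NDUFS1, by at least 1.5-fold (12.8%). At 1000 nM, 16 of 70 moved by at least 1.2-fold (53.9% of all) and 0 of 70 by at least 1.5-fold (23.8%). Log2 changes of the 70 ran from -0.22 to 0.60 at 500 nM and from -0.48 to 0.57 at 1000 nM, with medians of 0.06 at each dose against 0.01 and -0.01 over all probe sets.

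Most members were read from bright probe sets, and bright probe sets as a whole moved less. Among the 2944 probe sets with a mean log2 level of 11 or more, 33.7% moved by at least 1.2-fold at 1000 nM and 20.4% at 500 nM; of the 57 members this bright, 11 and 5 did. Of the same 57, 28 were called at 1000 nM and 24 at 500 nM, against 63.3% and 50.3% of bright probe sets. At least 1.5-fold changes were seen in 7.17% and 2.82% of bright probe sets and in 0 of the 57 members at either dose. The median size of change of the bright members was 0.12 at 1000 nM and 0.09 at 500 nM, against 0.17 and 0.12 over bright probe sets. Arrays of treated and DMSO cultures did not overlap for 43 of 70 members at 1000 nM (65.1% of all probe sets) and for 19 of 70 at 500 nM (43.7%).

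The counts moved with the arrays fitted. With only the groups compared in the fit, 9 members rose and 2 fell at 500 nM, in place of 20 and 6. Calls lost there included COX6B1 (adjusted p = 0.068) and NDUFA2 (0.078). Without DMSO replicate 1, 13 members rose at 500 nM in place of 20. Without DMSO replicate 3, 6 in place of 11 fell at 1000 nM and 3 in place of 6 at 500 nM, and without 500 nM replicate 2, 13 fell at 500 nM. Without the third 500 nM array, 28 members rose at that dose, and without it and 5 nM replicate 3 together, 31 rose. These were the 2 arrays with the lowest mean level over the members. Leaving out the 500 nM one favours a higher count, so 28 and 31 are not separate support for a rise. With the 3′ to 5′ ratio as a covariate, 30 members rose and 2 fell at 1000 nM, and 22 rose and 2 fell at 500 nM. Shares of all probe sets called were not counted in these alternative fits, so their counts have no background beside them.

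**Figure D1:**
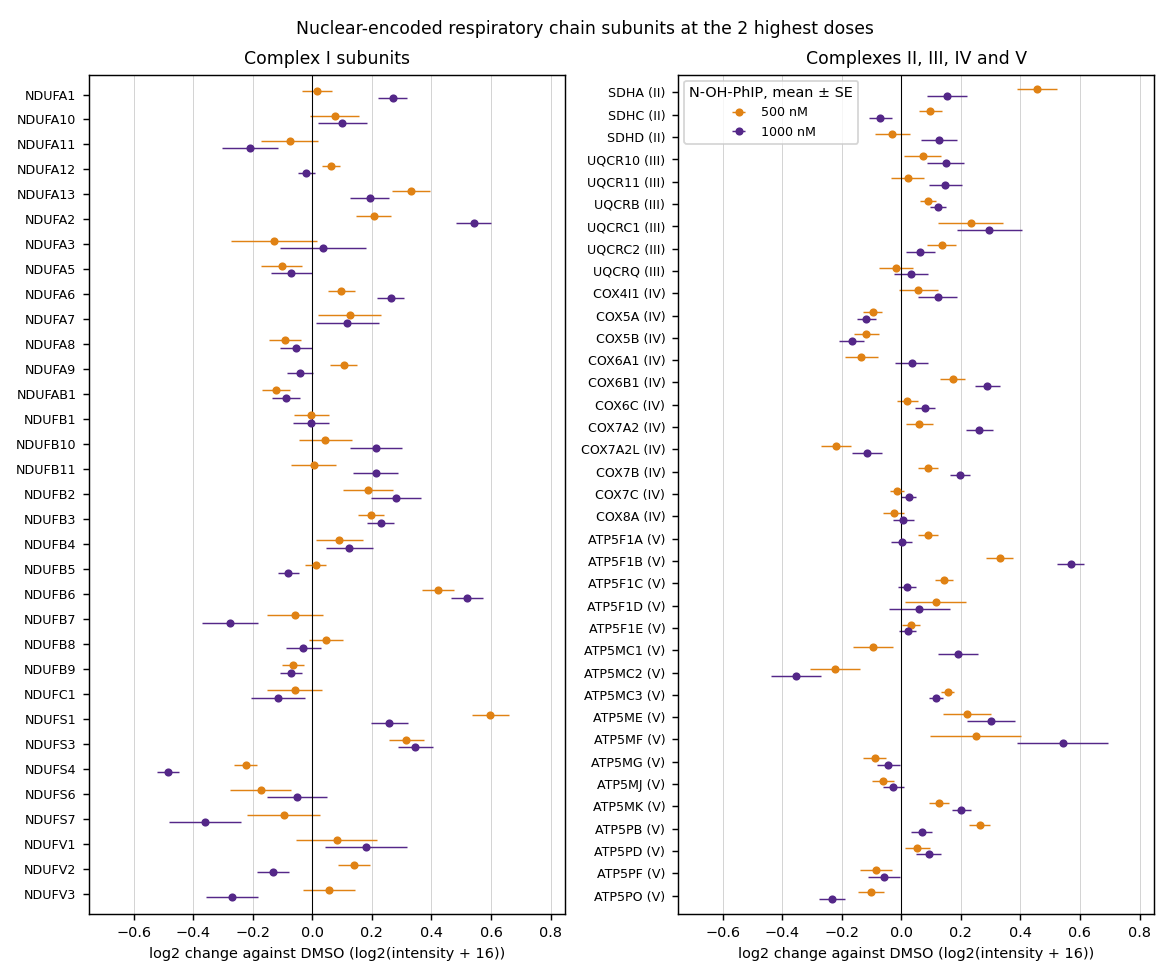
Log2 change against DMSO (x axis, log2(intensity + 16) scale, mean ± SE from the limma fit, 3 arrays per group) of each of the 70 nuclear-encoded subunits at 500 nM (orange) and 1000 nM (purple), complex I on the left and complexes II to V on the right. All 70 points at 1000 nM lie between -0.48 (NDUFS4) and 0.57 (ATP5F1B), and NDUFS1 and SDHA lie further right at 500 nM than at 1000 nM.

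Complex I, the NADH dehydrogenase, held both the subunit with the lowest change at 1000 nM and several of those with the highest. Of its 33 measured nuclear subunits, 11 rose and 6 fell at 1000 nM (28.9% and 31.0% of all probe sets). At 500 nM, 7 rose and 2 fell (23.1% and 22.3% of all). NDUFS1, NDUFS3, NDUFS7, NDUFV1 and NDUFV2 belong to the catalytic core, and the rest are accessory subunits.

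In the core, NDUFS1, the large iron-sulfur protein of the NADH-oxidising arm, stood at 909, 884 and 906 in DMSO, at 1316, 1491 and 1308 at 500 nM, and at 1045, 1162 and 1034 at 1000 nM. Both dose groups lay above DMSO without overlap, and 500 nM lay above 1000 nM. The log2 change was 0.60 ± 0.06 at 500 nM (adjusted p = 1.4e-08) and 0.26 ± 0.06 at 1000 nM (8.3e-04), and 1000 nM was lower than 500 nM by a log2 change of -0.34 ± 0.06 (8.6e-05). NDUFS3, a core subunit near the quinone site, went from 2966, 3317 and 3313 to 3800, 4340 and 3818 at 500 nM and 4318, 3891 and 3994 at 1000 nM. It rose by 0.32 ± 0.06 at 500 nM (adjusted p = 8.2e-05) and 0.35 ± 0.06 at 1000 nM (1.4e-05), with no overlap with DMSO at either dose.

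NDUFS7, which carries the last iron-sulfur cluster before quinone, was one of the dimmer members. It read 372, 439 and 454 in DMSO and 349, 325 and 299 at 1000 nM, a fall of log2 -0.36 ± 0.12 (adjusted p = 0.013) with groups that did not overlap, and its change at 500 nM was -0.10 ± 0.12 (0.54). Its call was lost without DMSO replicate 3 or without 1000 nM replicate 3 (adjusted p = 0.06 for each), with the 3′ to 5′ covariate its change was -0.15 (0.64), and with its probe sets averaged -0.11 (0.23). NDUFV2, the small iron-sulfur partner of the FMN-binding NDUFV1, went from 2794, 2925 and 3079 to 3028, 3334 and 3343 at 500 nM and to 2685, 2735 and 2601 at 1000 nM. It was above DMSO at 500 nM (0.14 ± 0.05, adjusted p = 0.038) and below it at 1000 nM (-0.13 ± 0.05, 0.04), and the step between the doses was -0.27 ± 0.05 (2.4e-04). The 500 nM call of NDUFV2 was lost without DMSO replicate 1 or 2 or 500 nM replicate 2 or 3 (adjusted p = 0.076 to 0.17), and its 1000 nM call without DMSO replicate 2 or 3 or 1000 nM replicate 1 or 3 (0.07 to 0.18). NDUFV1 was not called at either dose (0.08 ± 0.14 and 0.18 ± 0.14), with arrays from 1346 to 2495 at 500 nM.

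Among the accessory subunits, NDUFS4, which joins the NADH-oxidising module to the rest of the enzyme and whose loss causes Leigh syndrome, fell at both doses. Its arrays read 4108, 4089 and 4061 in DMSO, 3428, 3690 and 3378 at 500 nM and 3007, 2945 and 2804 at 1000 nM, so the 3 groups did not overlap. The log2 change was -0.22 ± 0.04 at 500 nM (adjusted p = 2.1e-05) and -0.48 ± 0.04 at 1000 nM (2.8e-11), and 1000 nM was lower than 500 nM (-0.26 ± 0.04, 4.1e-06). At 0.1 to 100 nM its group means lay between 3995 and 4200. NDUFV3, a small subunit of the same arm, read 2825, 3051 and 3166 in DMSO and 2487, 2569 and 2433 at 1000 nM (-0.27 ± 0.09, adjusted p = 0.0095). NDUFV3 reached a change of 0.05 (0.81) with the 3′ to 5′ covariate, a turn of direction. NDUFB7, a membrane-arm subunit of the intermembrane-space side, fell by log2 -0.28 ± 0.09 at 1000 nM (0.014), and its groups did not overlap. The call of NDUFB7 was lost without DMSO replicate 3 (0.066), without 1000 nM replicate 3 (0.14) and with the covariate (0.86). NDUFAB1, the mitochondrial acyl carrier protein, was lower at 500 nM (-0.12 ± 0.05, 0.041), a call that ended without DMSO replicate 2, DMSO replicate 3, 500 nM replicate 1 or 500 nM replicate 3 (0.071 to 0.23).

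The accessory subunits that rose were led by NDUFA2 and NDUFB6. NDUFA2, a thioredoxin-fold subunit of the NADH-oxidising arm, read 3045, 3210 and 3324 in DMSO, 3898, 3911 and 3281 at 500 nM and 4659, 4821 and 4480 at 1000 nM. The third 500 nM array lay within the DMSO range, and all 3 arrays at 1000 nM lay above every other. Its log2 change was 0.21 ± 0.06 at 500 nM (adjusted p = 0.0054) and 0.54 ± 0.06 at 1000 nM (1.2e-08), and 1000 nM was above 500 nM (0.33 ± 0.06, 5e-05). The 500 nM call of NDUFA2 was lost with only the compared groups fitted (0.078) and with its probe sets averaged (0.087, adjusted p = 0.31). NDUFB6 read 1588, 1531 and 1459 at 500 nM and 1597, 1620 and 1682 at 1000 nM, all above its DMSO arrays, with changes of 0.42 ± 0.05 (2.7e-07) and 0.52 ± 0.05 (3.6e-09). Its step between the 2 doses was 0.10 ± 0.05 and was not called (0.14).

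Further accessory subunits that rose at 1000 nM included NDUFA1 (0.27 ± 0.05, adjusted p = 4.2e-05), which stood at 3209 to 3568 in DMSO and 4064 to 4204 at 1000 nM. NDUFA1 showed no call at 500 nM (0.02 ± 0.05). NDUFB2 rose by 0.28 ± 0.08 (0.0056), NDUFB3 by 0.23 ± 0.04 (7.4e-05) and NDUFB11 by 0.21 ± 0.08 (0.018), all membrane-arm subunits. With its probe sets averaged, NDUFB2 changed by 0.12 and was not called (0.11). The call of NDUFB11 was lost without DMSO replicate 1, DMSO replicate 2 or 1000 nM replicate 2 (0.052 to 0.062). NDUFA13, also studied as the cell death regulator GRIM-19, rose more at 500 nM (0.33 ± 0.06, 1.4e-04) than at 1000 nM (0.19 ± 0.06, 0.012) by point estimate, but the difference of -0.14 ± 0.06 was not called (0.083). NDUFA13 lost its 1000 nM call without DMSO replicate 1 (0.057), without 1000 nM replicate 1 (0.081) and with the 3′ to 5′ covariate (0.089).

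**Figure D2:**
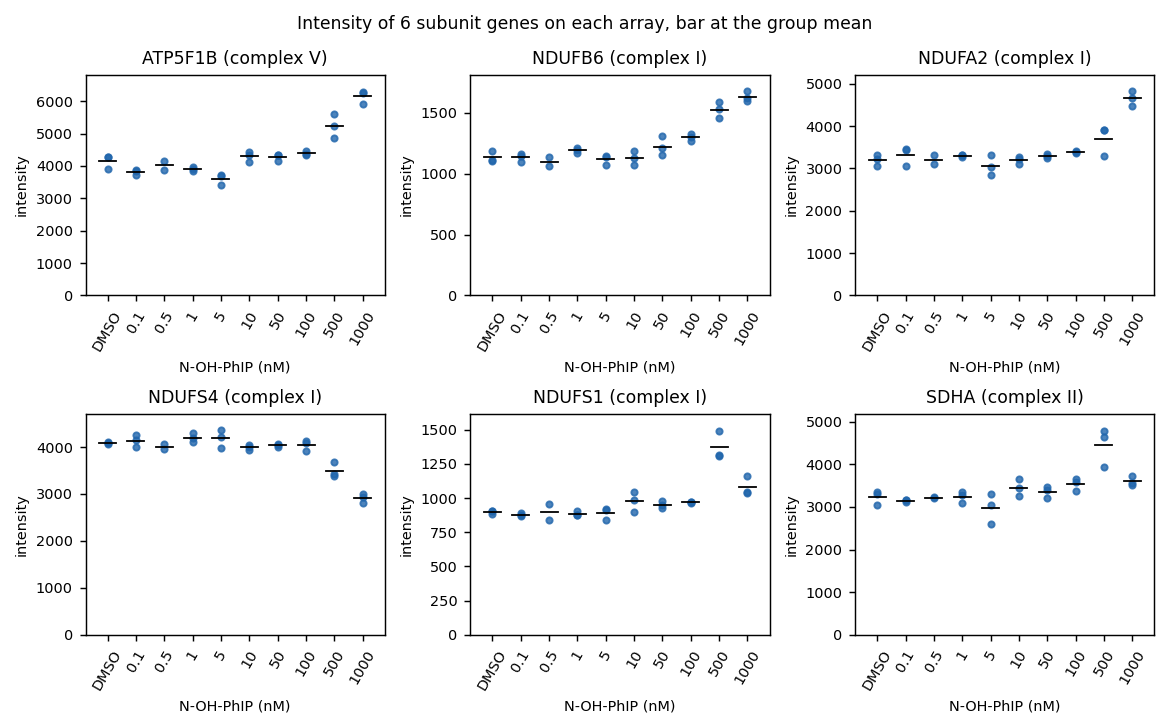
Intensity (y axis, linear, from 0) of 6 subunit genes on each of the 29 arrays, with the N-OH-PhIP dose in nM on the x axis (steps not to scale), a point per array and a bar at the group mean. ATP5F1B, NDUFB6 and NDUFA2 are highest at 1000 nM, NDUFS4 is lowest there (2804 to 3007 against 4061 to 4108 in DMSO), and NDUFS1 and SDHA peak at 500 nM.

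Complex II, succinate dehydrogenase, is the one complex with no mitochondrially encoded subunit, and SDHA, SDHC and SDHD were measured here. SDHA, the flavoprotein that oxidises succinate, read 3056, 3305 and 3361 in DMSO, 4651, 4783 and 3948 at 500 nM and 3520, 3735 and 3556 at 1000 nM. At these 2 doses all arrays lay above the DMSO arrays, and all 500 nM arrays above the 1000 nM arrays. SDHA rose at 500 nM (0.46 ± 0.07, adjusted p = 4e-06), did not pass at 1000 nM (0.15 ± 0.07, 0.053), and was lower at 1000 than at 500 nM (-0.30 ± 0.07, 7.3e-04). The 1000 nM change of SDHA did pass in 8 of 17 alternatives, among them the fit without DMSO replicate 3 (0.18, 0.047) and that with the 3′ to 5′ covariate (0.44, 0.0041). The membrane anchor SDHC was called at 500 nM with a small change (0.10 ± 0.04, 0.043) and was also lower at 1000 than at 500 nM (-0.17 ± 0.04, 0.0011). The 500 nM call of SDHC ended when any 1 of the DMSO arrays or 500 nM replicate 1 or 3 was left out (0.051 to 0.13), and in most of the other settings tried. SDHD, the other anchor, was not called against DMSO (-0.03 ± 0.06 at 500 nM and 0.13 ± 0.06 at 1000 nM, adjusted p = 0.71 and 0.067), and was higher at 1000 than at 500 nM (0.16 ± 0.06, 0.034).

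In complex III, the cytochrome bc1 complex, 4 of 6 nuclear subunits rose at 1000 nM (28.9% of all probe sets) and 2 rose at 500 nM (23.1%). UQCRB, a small subunit at the quinone-binding side, rose with little spread, by 0.09 ± 0.03 at 500 nM (adjusted p = 0.0078) and 0.12 ± 0.03 at 1000 nM (2.7e-04). It read 5492, 5691 and 5755 in DMSO and 6104, 6234 and 6125 at 1000 nM, with no overlap. Its 500 nM call was lost without DMSO replicate 1 (0.062) or 500 nM replicate 2 (0.056). The core protein UQCRC1 rose at 1000 nM (0.29 ± 0.11, 0.023), from 821 to 849 in DMSO to 1006 to 1034, and its 500 nM arrays spread from 773 to 1304. UQCRC1 lost that call without DMSO replicate 1 or 2 or 1000 nM replicate 1 or 2, narrowly (0.052 to 0.055). The core protein UQCRC2 rose at 500 nM (0.14 ± 0.05, 0.023) and not at 1000 nM (0.06 ± 0.05, 0.26). UQCRC2 lost the 500 nM call without DMSO replicate 1 or 3 or 500 nM replicate 1 or 2 (0.059 to 0.17). The small subunits UQCR10 (0.15 ± 0.06, 0.039) and UQCR11 (0.15 ± 0.06, 0.022) were called at 1000 nM. UQCR10 lost its call without DMSO replicate 1 or 2 or 1000 nM replicate 1 or 2 (0.053 to 0.21), and UQCR11 without DMSO replicate 2 or 1000 nM replicate 2 (0.11 and 0.12).

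Complex IV, cytochrome c oxidase, split evenly at 1000 nM, with 3 of 11 nuclear subunits higher and 3 lower (28.9% and 31.0% of all probe sets). At 500 nM, 2 rose and 3 fell (23.1% and 22.3% of all). COX6B1, on the intermembrane-space face where cytochrome c docks, read 5060, 5182 and 5294 in DMSO, 5821, 6361 and 5382 at 500 nM and 6333, 6270 and 6374 at 1000 nM. Neither dose overlapped DMSO, and COX6B1 rose by 0.17 ± 0.04 (adjusted p = 0.0014) and 0.29 ± 0.04 (1.7e-06). COX7B rose by 0.20 ± 0.03 at 1000 nM (1.4e-05), and its call at 500 nM (0.09 ± 0.03, 0.032) was lost without DMSO replicate 1 or 2 or 500 nM replicate 1 (0.066 to 0.23).

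COX5A and COX5B, peripheral subunits on the matrix side, fell slightly. COX5A went from 7113, 7135 and 7339 in DMSO to 6647, 6560 and 6684 at 1000 nM (-0.12 ± 0.03, adjusted p = 0.003), and COX5B from 4345, 4391 and 4522 to 3983, 3995 and 3825 (-0.17 ± 0.04, 0.0011), with no overlap for either. At 500 nM their changes were -0.10 ± 0.03 (0.018) and -0.12 ± 0.04 (0.022), calls that ended without DMSO replicate 3 or 500 nM replicate 1 (0.074 to 0.098), and for COX5B also without 500 nM replicate 3 (0.11). With the 3′ to 5′ covariate, neither passed at 1000 nM (0.16 for COX5A and 0.5 for COX5B), and with its probe sets averaged COX5A did not either (0.2).

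Complex IV also has subunits that exist as alternative forms, one broad and one restricted in its tissues. COX4I1 (0.12 ± 0.07, adjusted p = 0.11), COX6A1 (0.03 ± 0.06, 0.61) and COX8A (0.01 ± 0.04, 0.88) were not called at 1000 nM, though COX6A1 was higher at 1000 than at 500 nM (0.17 ± 0.06, 0.016). Their counterparts COX4I2, COX6A2, COX6B2, COX7A1, COX7B2 and COX8C were the 6 matching genes under the level minimum, with mean log2 levels from 4.63 (COX7B2) to 5.71 (COX6B2), against 6.02, 8.80 and 8.96 for the dimmest members, ATP5MF, NDUFS7 and ATP5F1D. COX7A2, the broad form of COX7A, rose at 1000 nM (0.26 ± 0.05, 1.8e-05), from 3297 to 3633 in DMSO to 3829 to 4398. COX7A2L, the related protein that links complexes III and IV into supercomplexes, went the other way, from 5392, 5425 and 5338 in DMSO to 4569, 4316 and 4999 at 500 nM (-0.22 ± 0.05, 7.4e-04) and 4929, 4768 and 5222 at 1000 nM (-0.12 ± 0.05, 0.049). The 1000 nM call of COX7A2L ended when any 1 of the DMSO arrays or 1000 nM replicate 1 or 2 was left out (0.073 to 0.2), while its 500 nM call held in every alternative run.

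In complex V, the ATP synthase, 6 of 17 subunits rose and 2 fell at 1000 nM (28.9% and 31.0% of all probe sets). At 500 nM, 7 rose and 1 fell (23.1% and 22.3% of all). In the catalytic F1 head, the beta subunit ATP5F1B read 5227, 5590 and 4852 at 500 nM and 6256, 6293 and 5927 at 1000 nM against 3911 to 4266 in DMSO, and no groups overlapped. ATP5F1B had the largest rise of all members at 1000 nM by point estimate, at 0.57 ± 0.05 (adjusted p = 4.8e-11) after 0.33 ± 0.05 at 500 nM (1.3e-06), and the step between the doses was 0.24 ± 0.05 (1.3e-04). Its partners in the head and central stalk moved little. The alpha subunit ATP5F1A changed by 0.09 ± 0.03 (0.035) at 500 nM and 0.00 ± 0.03 (0.98) at 1000 nM, and the gamma subunit ATP5F1C by 0.14 ± 0.03 (2.7e-04) and 0.02 ± 0.03 (0.59). The 500 nM call of ATP5F1A ended without DMSO replicate 1 or 500 nM replicate 1 or 2 (0.098 to 0.24). Delta (ATP5F1D, 0.06 ± 0.10) and epsilon (ATP5F1E, 0.02 ± 0.03) were not called at 1000 nM (0.64 and 0.55).

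In the peripheral stalk, which holds the head still, subunit b (ATP5PB) rose at 500 nM, from 3939, 3972 and 4077 to 4711, 4874 and 4816 (0.26 ± 0.04, adjusted p = 8.2e-07). At 1000 nM ATP5PB was near DMSO (0.07 ± 0.04, 0.092) and below its 500 nM level (-0.19 ± 0.04, 7.3e-05). The OSCP subunit ATP5PO, which ties the stalk to the head, fell at 1000 nM, from 6691, 6948 and 6907 to 5788, 5815 and 5866 (-0.23 ± 0.04, 4.5e-05), with no overlap. With the 3′ to 5′ covariate, the change of ATP5PO was -0.07 (0.49). Of the small membrane subunits that bend the membrane and join dimers, ATP5ME rose by 0.30 ± 0.08 (0.0021) and ATP5MK by 0.20 ± 0.03 (7.1e-06) at 1000 nM, while ATP5MG (-0.04 ± 0.04, 0.35) and ATP5MJ (-0.03 ± 0.04, 0.55) were not called. ATP5MF was called too (0.54 ± 0.15, 0.0034), but on a dim probe set that read 27.2, 49.0 and 49.3 in DMSO and 70.8, 73.6 and 56.7 at 1000 nM, because its brighter probe set also names another gene, and its call ended without DMSO replicate 1 (0.051).

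The proton-carrying ring is built of subunit c, whose identical mature protein is encoded by ATP5MC1, ATP5MC2 and ATP5MC3, and their transcripts were called in both directions at 1000 nM. ATP5MC1 read 2511, 2638 and 2596 in DMSO, 2429, 2741 and 2121 at 500 nM and 2755, 3000 and 3097 at 1000 nM. ATP5MC1 rose at 1000 nM (0.19 ± 0.07, adjusted p = 0.018), where its arrays lay above DMSO, and was above its 500 nM level (0.28 ± 0.07, 0.0014). ATP5MC2 read 3241, 3261 and 3525 in DMSO, 3068, 3154 and 2418 at 500 nM and 2785, 2539 and 2515 at 1000 nM. ATP5MC2 fell at 500 nM (-0.22 ± 0.08, 0.034) and at 1000 nM (-0.35 ± 0.08, 8e-04), with no overlap with DMSO at either dose. ATP5MC3 read 8414, 8628 and 8543 in DMSO, 9520, 9690 and 9304 at 500 nM and 9232, 9142 and 9383 at 1000 nM, a small rise with little spread (0.16 ± 0.02, 3e-06, and 0.12 ± 0.02, 7.3e-05). The call of ATP5MC1 at 1000 nM ended without DMSO replicate 1 or 1000 nM replicate 2 or 3 (0.055 to 0.087). The call of ATP5MC2 at 500 nM ended without DMSO replicate 3 or 500 nM replicate 3 (0.12 and 0.29), and that at 1000 nM only with the 3′ to 5′ covariate (-0.31, 0.15) among the alternatives run.

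**Figure D3:**
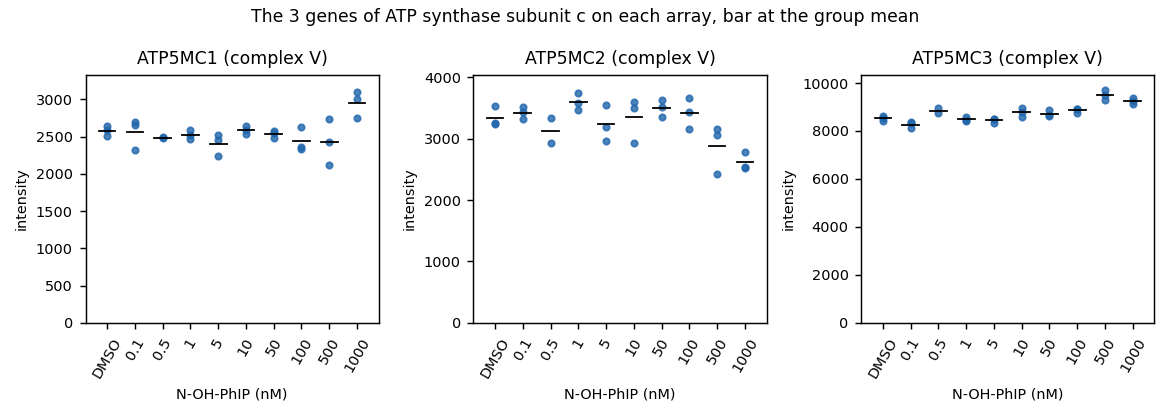
Intensity (y axis, linear, from 0) of the 3 genes for ATP synthase subunit c on each of the 29 arrays, with the N-OH-PhIP dose in nM on the x axis (steps not to scale), a point per array and a bar at the group mean. At 1000 nM, ATP5MC1 (2755 to 3097) and ATP5MC3 (9142 to 9383) lie above their DMSO arrays and ATP5MC2 (2515 to 2785) lies below.

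Between the 2 highest doses, 11 members were higher and 13 lower at 1000 than at 500 nM, against 17.7% and 25.6% of all probe sets (43.3% in all). Both directions occurred within complex I (4 higher, 7 lower), complex II (1 and 2) and complex V (2 and 4), while the 4 calls in complex IV were all higher, and in complex III limma called 0 of 6 (1 at an unadjusted p under 0.05). In complex V, ATP5F1B and ATP5MC1 were higher at 1000 nM, and ATP5F1A, ATP5F1C, ATP5PB and ATP5PO were lower. In complex I, NDUFA1, NDUFA2, NDUFA6 and NDUFB11 were higher, and NDUFS1, NDUFS4, NDUFV2, NDUFV3, NDUFA9, NDUFA12 and NDUFB5 were lower. The count of 11 fell to 7 without 1000 nM replicate 2 or 3. The count of 13 was 19 without 500 nM replicate 3, 1 of the 2 arrays lowest on the members. With only the 2 groups fitted, 4 members were higher and 5 lower at 1000 nM. The steps of single genes between these doses, here and above, were not checked in the alternative fits.

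Along the dose series, 26 members had a rising and 15 a falling slope when log2 level was fitted on log10 dose in the 26 treated arrays, against 30.6% and 28.9% of all probe sets (59.5% in all). The steepest rises per 10-fold dose were those of ATP5F1B (0.15 ± 0.02, limma adjusted p = 2.9e-06), NDUFB6 (0.13 ± 0.02, 4.6e-06) and NDUFS1 (0.11 ± 0.02, 9.4e-05). The steepest falls were those of NDUFS4 (-0.09 ± 0.02, 9.9e-05), NDUFS7 (-0.08 ± 0.03, 0.0096) and ATP5MC2 (-0.07 ± 0.02, 0.0072). Over 0.1 to 100 nM alone, 3 members rose and 0 fell (0 falling also at an unadjusted p under 0.05), against 6.86% of all probe sets with a called slope in either direction. With the 3′ to 5′ ratio as a covariate, 0 members rose and 0 fell (13 and 0 at an unadjusted p under 0.05), and 120 of all probe sets (0.439%) had a called slope. The falling count was 9 without 500 nM replicate 3 or 1000 nM replicate 1.

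Where called, other probe sets of the same genes mostly shared the sign of the brightest, though not always its size. Of 53 further tested probe sets in 35 members, 23 were called at 1000 nM (59.9% of all probe sets). Of these, 21 had the sign of the brightest probe set, including some in genes whose brightest probe set was not called. Of the 53, 6 moved by at least 1.5-fold (23.8% of all probe sets). In 2 genes the calls opposed each other. For NDUFA6, the brightest probe set, 202001_s_at, rose at 1000 nM (0.26 ± 0.05, adjusted p = 1.9e-05) and 202000_at fell, from 1174, 1175 and 1193 to 929, 953 and 1022 (-0.28 ± 0.07, 0.0012). For UQCR11, 202090_s_at rose (0.15 ± 0.06, 0.022) and 223613_at fell, from 225, 197 and 239 to 137, 136 and 121 (-0.67 ± 0.09, 1.9e-07).

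Some dimmer probe sets moved further than the brightest one of their gene. For COX4I1, whose brightest probe set was not called, 213758_at rose by 0.98 ± 0.19 (adjusted p = 6.5e-05) and 227323_at by 0.75 ± 0.11 (1.2e-06), while 202698_x_at changed by 0.11 ± 0.07 (0.17). For ATP5F1C, 214132_at rose by 0.86 ± 0.16 (6.1e-05), and for NDUFB4, 228940_at rose by 0.81 ± 0.17 (2.2e-04). For NDUFV3, 226209_at fell by a log2 change of -0.83 ± 0.09 (1.1e-08), in the direction of the brightest probe set (-0.27). Averaging all tested probe sets of a gene turned the 1000 nM change to -0.010 for NDUFA6, -0.26 for UQCR11 and -0.035 for UQCR10, and ended the 1000 nM calls of ATP5MC3 (adjusted p = 0.99), NDUFB2 (0.12, 0.11), NDUFS7 (-0.11, 0.23) and COX5A (-0.11, 0.2). It gave called rises there for COX4I1 (0.49, 7e-06), ATP5F1C (0.24, 5.5e-05) and ATP5PB (0.16, 0.024). SDHA has a single tested probe set, so its change of 0.15 stayed as it was, and its adjusted p was 0.048 in that fit. Which transcripts the dimmer probe sets read was not tested.

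**Figure D4:**
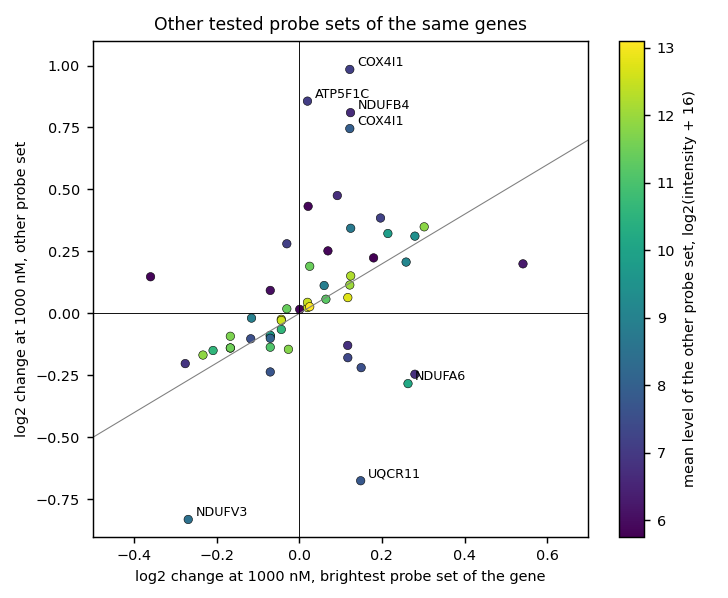
Log2 change at 1000 nM against DMSO of the 53 other tested probe sets (y axis) against that of the brightest probe set of the same gene (x axis), coloured by the mean log2(intensity + 16) level of the other probe set; the grey line marks equal changes. Probe sets of COX4I1 (0.98 and 0.75), ATP5F1C (0.86), NDUFB4 (0.81), UQCR11 (-0.67) and NDUFV3 (-0.83) lie farthest from 0.

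The mitochondrially encoded partners of these subunits fell at the doses at which the nuclear ones moved in both directions. Of the 13 such subunits, 7 were measured (listed on the array as ND2, ND4, ND6, COX1, COX2, COX3 and ATP6). Of these, 7 of 7 fell at 500 nM (22.3% of all probe sets called lower) and at 1000 nM (31.0%). Their log2 changes ran from -1.65 to -0.83 at 500 nM (median -1.30) and from -1.73 to -0.68 at 1000 nM (median -1.48), while the lowest nuclear-encoded member stood at -0.22 and -0.48, so the ranges of these probe sets did not overlap at either dose. Among the members' other probe sets, 226209_at of NDUFV3 stood at -0.83 at 1000 nM, within the mitochondrially encoded range, and 223613_at of UQCR11 at -0.67, just above it. COX2, a catalytic subunit of complex IV, read 12977, 12496 and 12589 in DMSO and 4117, 4929 and 4602 at 1000 nM (-1.48 ± 0.05, limma adjusted p = 1.9e-17), beside COX5A at -0.12 and COX6B1 at 0.29. ND2, of the membrane arm of complex I, read 8896, 8271 and 8172 in DMSO and 2433, 2646 and 2533 at 1000 nM (-1.73 ± 0.07, 1e-16), beside NDUFB6 at 0.52 and NDUFS4 at -0.48. ATP6, the proton channel of complex V, read 5634, 4961 and 4962 in DMSO and 1716, 1975 and 2028 at 1000 nM (-1.44 ± 0.11, 1.2e-11), beside ATP5F1B at 0.57.

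At 100 nM (2.90% of all probe sets called), ND4 (-0.71 ± 0.13, adjusted p = 0.0014) and COX3 (-0.57 ± 0.13, 0.011) had already fallen, while NDUFB6 was the only nuclear-encoded member called. ND4 averaged 9077 in the controls, 5638 at 100 nM and 3083 at 1000 nM. The count of 7 was unchanged when any single array of the groups compared was left out, and was 6 at 1000 nM and 7 at 500 nM with the 3′ to 5′ covariate. The difference between the 2 sets of genes was not itself tested.

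**Figure D5:**
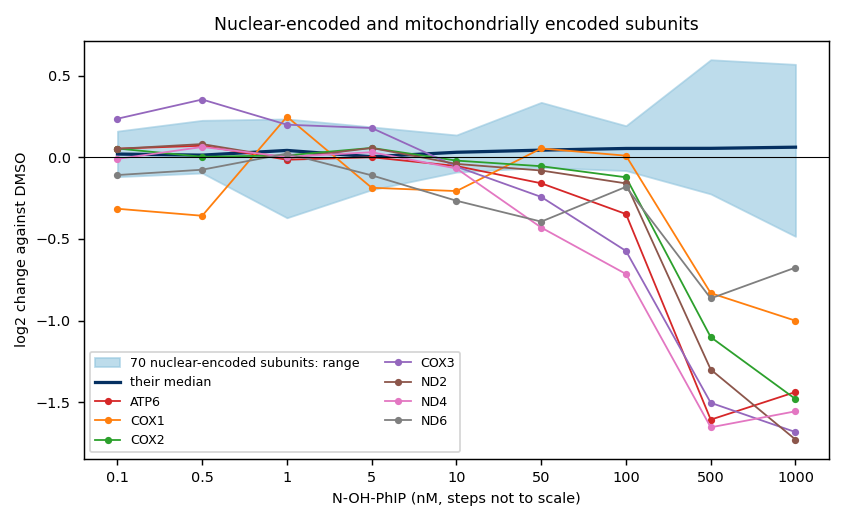
Log2 change against DMSO (y axis) at each N-OH-PhIP dose in nM (x axis, steps not to scale) for the 70 nuclear-encoded subunits (band from lowest to highest, dark line at the median) and for the 7 measured mitochondrially encoded subunits (coloured lines). At 500 and 1000 nM the coloured lines lie between -1.73 and -0.68, below the band (brightest probe set of each gene), whose lowest points there are -0.22 and -0.48.

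Other genes that serve the chain were read from the same fit. Among 51 assembly factors, which build the complexes, 9 rose and 20 fell at 1000 nM (median -0.10). The heme A synthesis enzyme COX10 fell from 804 ± 29.1 to 410 ± 37.3 (-0.95 ± 0.07, adjusted p = 1.1e-11) and the copper chaperone SCO2 rose from 275 ± 18.2 to 442 ± 44.8 (0.65 ± 0.14, 2e-04). Among 75 mitochondrial ribosomal proteins, which translate the mitochondrially encoded subunits, 14 rose and 34 fell (median -0.14), with MRPS18A at -0.92 ± 0.06 and MRPL14 at 0.73 ± 0.07. Among 17 regulators of mitochondrial biogenesis, 6 rose and 7 fell (median -0.07). GABPB1, the partner of GABPA, fell from 872 ± 29.7 to 456 ± 20.3 (-0.91 ± 0.07, 5.1e-11), the coactivator PPARGC1A from 98.6 ± 3.93 to 33.4 ± 5.71 (-1.22 ± 0.09, 1.2e-11), and the mitochondrial DNA polymerase POLG rose (0.67 ± 0.06, 1.4e-09). These shares stand beside 28.9% of all probe sets higher and 31.0% lower at 1000 nM.

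Genes that supply the chain were counted in the same way. Of 16 citrate cycle genes, 11 rose and 3 fell at 500 nM (median 0.25, against 23.1% and 22.3% of all probe sets), and 5 rose and 2 fell at 1000 nM (median 0.11). The isocitrate dehydrogenase subunits IDH3G (0.67 ± 0.09) and IDH3A (0.62 ± 0.06) rose at 1000 nM, and the succinyl-CoA ligase subunits SUCLG2 (-0.65 ± 0.11) and SUCLA2 (-0.43 ± 0.06) fell. Of 14 mitochondrial carriers and pores, 6 rose and 3 fell at 1000 nM (median 0.08), with the outer membrane porin VDAC2 at 0.47 ± 0.04 and the aspartate-glutamate carrier SLC25A13 at -1.08 ± 0.06. Of 7 other chain genes, 2 rose and 1 fell (median 0.01). Cytochrome c (CYCS), which carries electrons from complex III to IV, rose from 4111 ± 172 to 5262 ± 108 (0.36 ± 0.04, adjusted p = 7.5e-09). HIGD2A rose (0.39 ± 0.06), and DMAC2L fell (-0.48 ± 0.10). The 1000 nM counts of these 3 lists stand beside 28.9% of all probe sets called higher and 31.0% called lower.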

How the data were processed

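Per the labels' protocols, 40 ng of total RNA per culture was amplified and biotin-labelled with NuGEN Ovation kits and hybridised to GeneChip arrays. The authors deposited a linear intensity for each probe set, made with GCOS per the submitters' processing notes; the version and normalization are not given in the sources used here. Low values were not shown to be above background.

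The fits used log2(intensity + 16), which understates changes of dim probe sets. Of 54675 probe sets, the 62 controls and those under the median mean level of 5.74 (intensity 37.4) were left out, and 27307 were fitted with limma 3.58.1 in R 4.3.3, with a mean per group, a mean-variance trend and 19 residual degrees of freedom. The code was tested on simulated data. Tests were two-sided. Slopes are log2 per 10-fold dose. A member was read from its brightest tested probe set naming 1 gene. Left out were 10 probe sets naming a matching gene with others (the only ones for NDUFS8, NDUFC2, NDUFS5 and UQCRH) and 5 noncoding or pseudogene symbols. NDUFA4, NDUFA4L2, SDHB and UQCRFS1 were not analysed here.

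Members named in the text were, for each complex, up to 4 called in each direction with the largest changes at 1000 nM, 500 nM and between them, those called at lower doses, the steepest slopes, the SDH and paralogue sets, and genes whose probe sets opposed each other; up to 3 per direction came from each comparison list. Some further members are named from their values. The members and lists were chosen with earlier results of these data known. Alternatives (offset, scaling, level filter, variance model, replicate block, 3′ to 5′ ratio covariate, samples fitted, probe sets averaged, arrays left out, dose axis and range) are given at the end. Promoter sequences are from RefSeq. The number of arrays limits the precision.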

Additional observations from a re-analysis of the deposited data

How the results depend on the processing

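Single arrays moved the counts of called members as follows: 17 to 26 higher and 6 to 11 lower at 1000 nM, 13 to 28 higher and 3 to 13 lower at 500 nM, 0 to 2 at 0.1 to 100 nM, 7 to 15 higher and 9 to 19 lower at 1000 against 500 nM, and 23 to 27 rising and 9 to 17 falling slopes. With only the arrays of the groups compared, 9 members rose and 2 fell at 500 nM, 4 were higher and 5 lower at 1000 than at 500 nM, and 1 was called at 0.1 to 100 nM; fewer arrays then estimate the spread. With the 3′ to 5′ ratio as a covariate, which moves with dose, 2 members fell at 1000 nM and 2 at 500 nM, and 0 slopes rose and 0 fell (13 and 0 at an unadjusted p under 0.05 in limma). Without 5 nM replicate 3 and 500 nM replicate 3 together, 31 members rose at 500 nM, 20 were lower at 1000 than at 500 nM and 5 were called at 0.1 to 100 nM. These 2 arrays were picked for their low mean level over the members, which favours the first 2 of these counts. Median centring gave 17 higher at 1000 than at 500 nM, and with no level filter limma called 0 at 0.1 to 100 nM (22 at an unadjusted p under 0.05 at some dose). With DMSO set 10-fold below the lowest dose 6 slopes fell, and over 0.1 to 100 nM alone 3 rose and 0 fell (0 at an unadjusted p under 0.05). The cause of these shifts was not tested. Shares of all probe sets called in the alternative fits were not counted, apart from some of the slopes.

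Whether replicate numbers pair the samples was not settled. Correlations of same-numbered arrays' deviations from their group means ran from -0.52 to 0.75. They averaged 0.002, -0.004 and 0.05 for replicate numbers 1, 2 and 3, but the highest were 0.34, 0.30 and 0.75. Replicate number 3 holds the 2 arrays with the lowest mean level over the members, at 5 nM (11.54) and 500 nM (11.55). Whether these 2 share a batch was not tested. The 500 nM array enters every result at 500 nM and every step from 500 to 1000 nM. Differently numbered arrays were not compared, so a batch shared by some arrays cannot be told from these values. With the replicate number as a block, 26 members rose and 11 fell at 1000 nM, 19 rose and 8 fell at 500 nM, and 1 was called at 0.1 to 100 nM.

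Direction turned for NDUFV3 at 1000 nM with the covariate (0.054) and, with the probe sets of a gene averaged, for UQCR10 at 1000 nM (-0.035), UQCR11 at 1000 and 500 nM (-0.26 and -0.18) and NDUFA6 at 1000 and 500 nM (-0.010 and -0.14). Of the other values of named members, 836 kept their direction and side of the threshold, 67 lost a call and 35 gained one; with single arrays left out the numbers were 434, 67 and 15. Quantile normalization and median centring moved the median of all probe sets by less than 0.1, but the members' own median change is smaller than that bound. At 500 and 1000 nM the members' median was 0.055 and 0.062 as deposited. It was 0.040 and 0.038 with quantile normalization, and 0.034 and 0.081 with median centring. The count of 7 lower mitochondrially encoded subunits, followed after seeing the data, stayed at 6 or 7. Members near the level minimum, such as ATP5MF, depend most on the offset.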
